A study of Brassica napus with 6 samples.

Results

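The genes described here are those of oilseed rape (Brassica napus) cotyledons that kept nearly the same level in bnsdp1 mutant and wild-type (WT) seedlings. They were selected on their CPM (the share of a library's gene reads that fall in a gene, scaled so that all genes sum to 1e6). A gene was taken if its mean over the 6 libraries was from 100 to below 500 CPM and if its highest CPM was at most 1.2 times its lowest. This held for 103 of the 100919 genes in the files, and they are called steady genes below. Another 1080 genes had the same mean level but a wider spread, so the steady genes made up 8.71% of the level. The measured values that chose the genes are given as a description and were not tested.

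Poly(A) RNA from cotyledons was sequenced in 6 libraries. Of these, 3 came from the mutant, for which the design text names the line bnsdp1#CR88, and 3 from WT. SDP1 (SUGAR-DEPENDENT1) encodes the triacylglycerol lipase by which seedlings begin to use their oil reserves, and the study compared expression when cotyledon lipid metabolism is disturbed. Seedlings of either genotype were raised on half-strength MS medium with 1% sucrose, spent 4 days in darkness and were then moved to normal conditions for 6 h. Only 1 mutant line is named, and the labels describe neither its allele nor whether seedlings were pooled or replicates raised separately. Mutant libraries held 48288744 to 54965583 counts and WT libraries 51404121 to 65550668.

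A reference gene is one whose transcript is taken as constant, so that other transcripts can be expressed relative to it, as in quantitative PCR. Sequencing counts carry the same need, because a library gives only shares of a total, and a gene can look steady or shifted depending on how libraries are scaled. In an allotetraploid such as oilseed rape, most genes exist as related copies on the A and the C subgenome, and counting can divide or drop reads that such copies share. Gene names do not stand beside the identifiers in the files, and a RefSeq table of 123214 genes of another assembly (Da-Ae) matched 0 of them. What the steady genes encode, the cell type markers of cotyledon and the commonly used plant reference genes are therefore not analysed here, and genes are given by identifier and place. For these places no genome build was named in the sources used here.

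The steady genes had mean levels of 100.3 to 489.6 CPM, with a median of 155 CPM and quartiles of 118 and 229 CPM. The other genes of the level had a median of 161 CPM. Within the level, 70 of 758 genes (9.23%) between 100 and 200 CPM were steady, 17 of 229 (7.42%) between 200 and 300 CPM, and 16 of 196 (8.16%) between 300 and 500 CPM. A ratio of at most 1.2 was similarly frequent lower down, at 10.1% of 4693 genes between 30 and 100 CPM and 9.05% of 11008 genes between 10 and 30 CPM. Above the level it was found in 3 of 136 genes between 500 and 1000 CPM and 3 of 62 genes above. Between 1 and 10 CPM, where fewer reads stand behind each value, it was found in 2.67% of 26336 genes.

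Ratios of highest to lowest CPM had a median of 1.16 among the steady genes and 1.64 among the others of the level. Only 14 steady genes had a ratio of at most 1.1. No gap separated the steady genes from the rest: the fifth gene inside the limit had a ratio of 1.197, and the fifth gene outside one of 1.205. Just inside the limit was BnaA02G0373500ZS (chromosome A02, 32826329 to 32828954, plus strand), with 105, 113 and 119 CPM in the mutant libraries, against 99.2, 115 and 99.1 CPM in the WT libraries. Just outside was BnaA08G0164800ZS (chromosome A08, 20593303 to 20602046, plus strand), which is not a steady gene. It had 564, 482 and 507 CPM in the mutant libraries, against 469, 485 and 471 CPM in the WT libraries. Its ratio was 1.2008, with the highest value in mutant replicate 1, and the ranges of the genotypes overlapped.

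**Figure D1:**
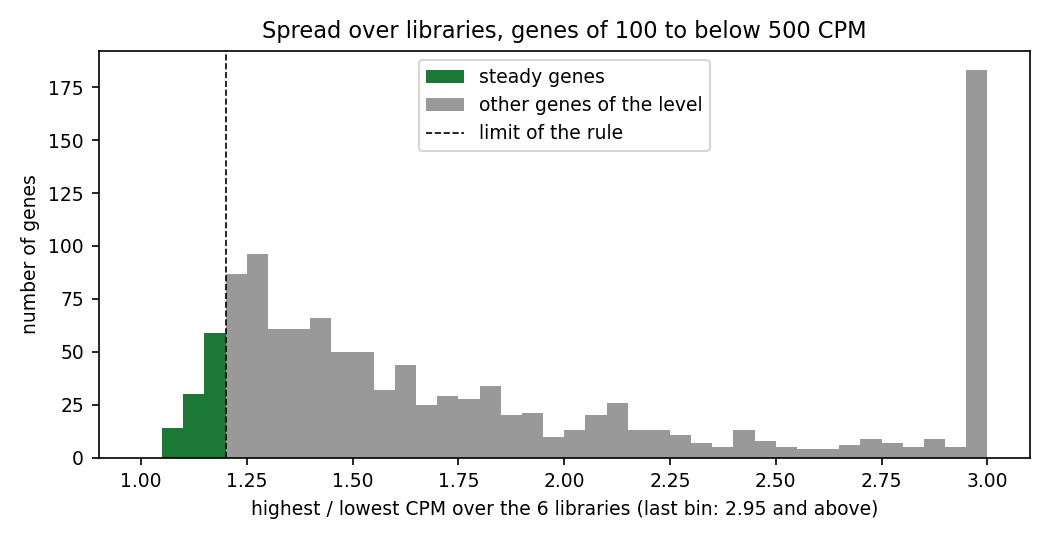
Number of genes (vertical axis) by the ratio of highest to lowest CPM over the 6 libraries (horizontal axis) for genes with a mean of 100 to below 500 CPM, with the 103 steady genes in green, the 1080 others in grey and the limit of 1.2 as a dashed line. The steady genes are the lower edge of a continuous distribution, and genes beyond the axis are drawn in the last bin.

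The steadiest gene was BnaC01G0018400ZS (chromosome C01, 1043127 to 1043819, minus strand, a span of 693 bp). It had 107, 110 and 106 CPM in the mutant libraries, against 106, 103 and 106 CPM in the WT libraries, and these ranges overlapped. Its highest value was 1.06 times its lowest, from 5164 to 6753 reads per library. The second was BnaC01G0258600ZS (chromosome C01, 20589078 to 20599523, plus strand), a gene with the long span of 10446 bp. It had 153, 152 and 149 CPM in the mutant libraries, against 144, 147 and 143 CPM in the WT libraries, a ratio of 1.07. Here every mutant value lay above every WT value, although the means differed only 1.05-fold. Both genes lie on chromosome C01, the first 1.04 Mb from a chromosome end and the second 20.6 Mb from one.

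The ends of the range of levels are held by genes on C04 and A10. The most abundant steady gene, BnaC04G0254500ZS (chromosome C04, 35904884 to 35906610, minus strand), had 471, 504 and 504 CPM in the mutant libraries, against 510, 504 and 445 CPM in the WT libraries. Its lowest value was in WT replicate 3 and the genotypes overlapped. The least abundant, BnaA10G0030800ZS (chromosome A10, 1723093 to 1724034, plus strand), had 93.1, 94.6 and 92.6 CPM in the mutant libraries, against 109, 110 and 102 CPM in the WT libraries. All its mutant values lay below all its WT values, and its mean in the mutant was 0.872 times that in WT, the lowest ratio of means among the steady genes.

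A limit of 1.2 over 6 libraries leaves room for a small difference between the genotypes. The ratio of mutant to WT mean CPM ran from 0.872 to 1.12 over the steady genes, with a median of 0.988, and the mutant mean was higher for 46 genes and lower for 57. This direction depended on the scaling: the median log2 fold change of the steady genes was -0.02 with library totals and 0.02 with TMM (trimmed mean of M values, edgeR's scaling). In whole cotyledons, fewer cells of a type and less RNA per cell cannot be told apart. Among the others of the level the 10th and 90th percentiles of that ratio were 0.527 and 2.90. Means differed by more than 1.2-fold for 780 of those 1080 genes and by at least 2-fold for 254. The median difference between genotypes, whichever was higher, was 1.03-fold for the steady genes and 1.42-fold for the others.

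Some steady genes still kept the genotypes apart. All mutant values lay above all WT values for 10 of the 103 genes and below them for 16, against 27.6% and 32.8% of all tested genes, or 60.4% in either direction. Among the others of the level the groups were apart for 870 of 1080 genes (80.6%). The largest differences upward were in BnaC01G0011300ZS (chromosome C01, 572272 to 572939, minus strand) and BnaA01G0318000ZS (chromosome A01, 29536133 to 29538917, plus strand). BnaC01G0011300ZS had 235, 217 and 218 CPM in the mutant libraries, against 196, 202 and 200.3 CPM in the WT libraries (fitted log2 fold change 0.20, SE 0.0815). Fitted values here and below used TMM, so they differ from ratios of CPM, which used library totals. BnaA01G0318000ZS had 153, 164 and 164 CPM in the mutant libraries, against 141, 139 and 151 CPM in the WT libraries (0.20, SE 0.0832). In neither gene did the genotypes overlap.

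Downward, the largest fitted differences were in BnaA10G0030800ZS, described above (log2 fold change -0.16, SE 0.0820), and in BnaC04G0589400ZS (chromosome C04, 69405136 to 69406646, minus strand). BnaC04G0589400ZS had 112, 112 and 111 CPM in the mutant libraries, against 127, 132 and 124 CPM in the WT libraries (-0.15, SE 0.0810), again without overlap. Its mutant libraries were close to each other, with a coefficient of variation (CV, the SD as a percentage of the mean) of 0.429%, against 3.27% in WT. Counting reads alone would give this gene a CV of 1.23%, above that in the mutant, so nothing is read from this closeness.

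In the comparison of all genes, 0 of the 103 steady genes were called changed (edgeR quasi-likelihood test, Benjamini-Hochberg false discovery rate under 0.05), against 51.7% of the 56385 genes tested and 72.0% of the others of the level. As the same contrast chose the genes, nothing is read from this. At an unadjusted p under 0.05 there were 5 steady genes in edgeR, and DESeq2 called 2, BnaC01G0011300ZS and BnaA01G0318000ZS, both higher in the mutant. With libraries scaled by total counts alone, edgeR called 2 others, BnaA10G0030800ZS and BnaC04G0589400ZS, both lower in the mutant. edgeR with DESeq2 size factors called 0 (2 at an unadjusted p under 0.05). The DESeq2 run also differed in the genes tested (75055 against 56385), and which step gave its calls was not tested. These 4 genes kept their direction in every setting tried, and which of them were called depended on the tool and the scaling.

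Spread between libraries of a genotype was lower in the steady genes as well, as the rule requires. The median CV was 4.16% within the mutant and 5.23% within WT, against 6.74% and 8.04% for the other genes of the level. Reads were numerous, so counting alone would give a CV of 0.607% to 1.34% per gene. Observed counts varied more than that in every steady gene: the chi-square per degree of freedom against a constant share was 2.57 in the steadiest gene, 29.5 at the median and 93.7 at most. For the others of the level its median was 412. Even the steadiest genes therefore varied beyond counting error, although by a few percent.

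Libraries did not contribute evenly to the remaining spread. WT replicate 3 was the lowest library for 41 of the 103 steady genes, and WT replicate 2 the highest for 32. Relative to each gene's own mean, the median steady gene stood at 0.990, 1.00 and 0.984 in mutant replicates 1, 2 and 3, and at 1.02, 1.03 and 0.963 in WT replicates 1, 2 and 3. The others of the level had medians of 0.980, 1.02 and 0.995 in the mutant libraries and 1.01, 1.05 and 0.927 in the WT libraries, so WT replicate 3 was the lowest for them too. Together the steady genes held 1.97% ± 0.0186 of counts in the mutant and 1.99% ± 0.0598 in WT (SD, n = 3 each). When the choice was made without WT replicate 3, 182 genes met the rule in place of 103. A gene's ratio over fewer libraries cannot be higher, so part of this rise is built in. Without any other single library the number was 118 to 151.

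**Figure D2:**
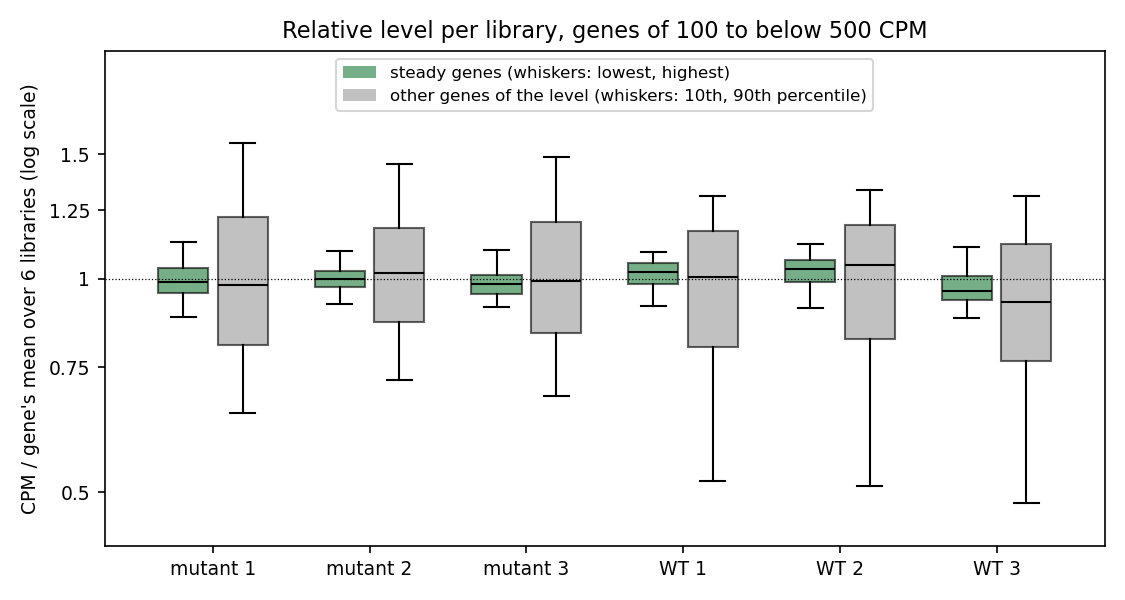
CPM of each gene in a library divided by the gene's mean over the 6 libraries (vertical axis, log scale) in each mutant and WT library, for the 103 steady genes (green, whiskers to the lowest and highest gene) and the 1080 other genes of 100 to below 500 CPM (grey, whiskers to the 10th and 90th percentile). Boxes span the quartiles with the median as a line; the steady genes stay between 0.880 and 1.13, and both groups have their lowest median in WT replicate 3.

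Steadiness within one genotype was common, and steadiness across genotypes was not. Of 1295 genes with a mean of 100 to below 500 CPM in the mutant, 957 (73.9%) had a ratio of at most 1.2 over the 3 mutant libraries. In the WT libraries, which that choice did not use, 668 of these (69.8%) also had a ratio of at most 1.2. The genotype means lay within 1.2-fold for 326 of the 957 genes (34.1%) and were at least 2-fold apart for 206 (21.5%). Conversely, 745 of 1119 genes (66.6%) were steady within WT, and 596 of them had a ratio of at most 1.2 within the mutant. Their means lay within 1.2-fold in 286 cases (38.4%) and at least 2-fold apart in 98 (13.2%). A steady set chosen in a single genotype thus held mostly genes whose means differed more than 1.2-fold between genotypes. This was much as in the level at large. Among all genes of the level, means lay within 1.2-fold for 28.0% to 39.5%, depending on the quartile of gene span.

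Gene span was not used by the rule, and its median was longer in the steady genes by slightly less than its counting error. In these files the stated length of a gene is the distance from its start to its end, introns included. The median span was 2415 bp (quartiles 1490 and 3656 bp) for the steady genes, against 1938 bp (1107 and 3009 bp) for the others of the level and 1964 bp for the 43418 genes that reached 1 CPM on average. The exact 95% binomial interval of the steady genes' median, 1930.0 to 2917 bp, held both other medians, which lay close to its lower end. It covers counting error only and treats genes as independent. Spans under 1 kb were found in 12 steady genes (11.7%), against 21.8% of the others, and spans of at least 5 kb in 15 (14.6%), against 8.98%. The shortest steady gene covered 312 bp and the longest 18956 bp. Lists of genes are described by counts and medians, and these differences were not tested. The direction of the median difference depended on the limits of the rule. The steady genes had the shorter median with a ratio limit of 1.1 (1700.5 against 1970.0 bp) or 1.5 (1860.5 against 2112 bp), and without WT replicate 3 (1957 against 1970.0 bp). In all other settings tried they had the longer median. This was 2679 against 1935.5 bp after TMM, 2726 against 1936 bp after DESeq2 size factors, and 2008 against 1970.0 bp without WT replicate 2.

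Across quartiles of span within the level, steady genes made up 5.41% of the shortest genes (up to 1125 bp), then 8.72% and 7.85%, and 12.8% of the longest (from 3069 bp). The difference between genotypes went the other way. Means lay within 1.2-fold for 39.5% of the shortest genes, then 37.2% and 31.4%, and for 28.0% of the longest. The spread within a genotype was lower in the longest than in the shortest genes, without a steady fall. From the shortest to the longest quartile the median CV was 7.66%, 6.53%, 5.59% and 5.99% in the mutant, and 8.05%, 8.67%, 6.78% and 6.15% in WT. Read depth did not increase with span, as median levels were 190 CPM in the shortest quartile and 149 CPM in the longest. The part of this spread in the span pattern was not tested.

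**Figure D3:**
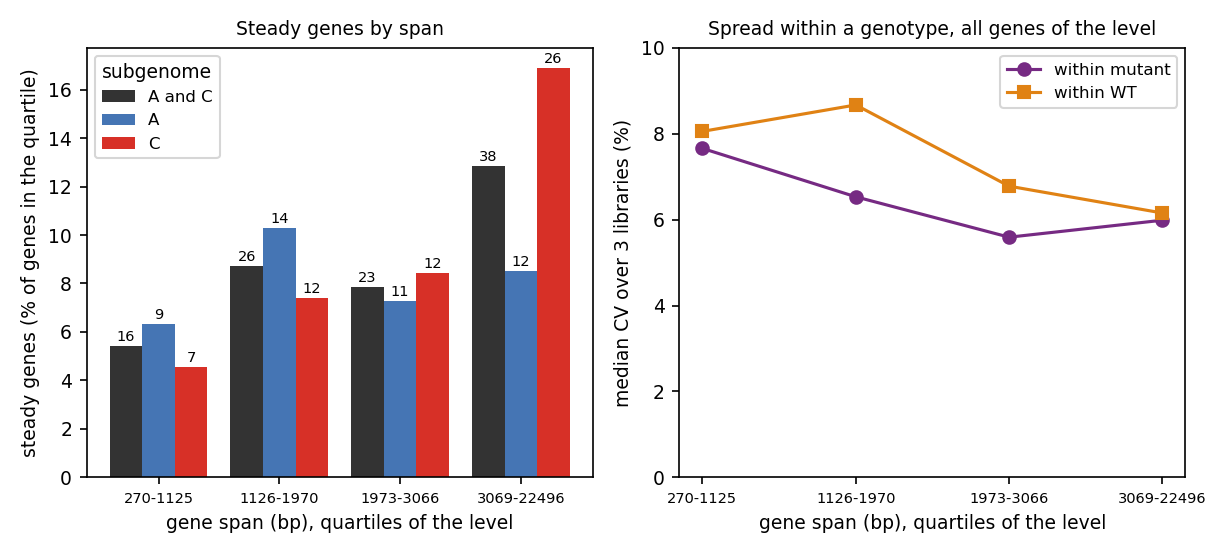
Left, steady genes as a percentage of all genes of 100 to below 500 CPM (vertical axis) in quartiles of gene span (horizontal axis, bp), for both subgenomes together and for A and C, with the number of steady genes above each bar. Right, the median CV over the 3 libraries of a genotype for all genes of the level in the same quartiles; the C subgenome reaches 16.9% steady genes in the longest quartile, while the A subgenome stays between 6.34% and 10.3%.

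The higher share among long genes was seen on the C subgenome, a difference between subgenomes that was not tested. In the longest quartile 26 of 154 C genes (16.9%) were steady, against 12 of 141 A genes (8.51%). In the shortest quartile the shares were 4.55% for C and 6.34% for A. Over all spans 57 steady genes were on C chromosomes and 46 on A chromosomes, so 44.7% were on A, against 48.5% of the others of the level and 48.1% of all genes of at least 1 CPM. The exact (Clopper-Pearson) 95% binomial interval of the A share, which covers counting error only and treats genes as independent, was 34.9% to 54.8% and held both other values.

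Per length, levels of the steady genes were somewhat lower. The median was 73.9 CPM per kb of span for the steady genes and 88.9 for the others of the level. The range was wide, from 6.999 CPM per kb in the gene of 18956 bp (BnaC02G0503700ZS) to 936 in a gene of 447 bp (BnaC01G0337300ZS); these identifiers were picked after their values had been seen. Because spans include introns, which poly(A) RNA largely lacks, these values understate the level per transcript length in genes with long introns.

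Steady genes occurred on all 19 chromosomes. Chromosome C05 held 11, and A09, C01 and C04 held 10 each. As a share of the genes of the same level, C01 had the most with 10 of 66 (15.2%) and C06 the fewest with 1 of 53 (1.89%), followed by C08 with 2 of 63 (3.17%). Among A chromosomes the share ran from 3.77% on A05 (2 of 53) to 12.2% on A10 (6 of 49). Of 4 chromosome stretches taken from an earlier look at these data, those on A07 (27 to 32 Mb), C06 (46 to 51 Mb) and A01 (4 to 9 Mb) held 0 steady genes among 11, 9 and 10 genes of the level, and A01 from 0 to 3 Mb held 2 of 13. Together they held 2 steady genes among 43, against 8.71% of the whole level, and with so few genes nothing is read from these counts.

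Position along the chromosome was much as in the rest of the level. The median distance to the nearer chromosome end, taken as the outermost annotated gene, was 8.68 Mb for the steady genes and 8.28 Mb for the others. Within 5 Mb of an end lay 31 steady genes (30.1%) and 345 of the others, and within 1 Mb 7 steady genes and 70 of the others (6.49%). A median of 65 other genes lay within 250 kb of a steady gene, and 70 within 250 kb of another gene of the level. The nearest annotated gene was a median of 712 bp away, against 789 bp. Annotated genes overlapped 2 steady genes (1.94%), BnaC05G0012700ZS and BnaC02G0503700ZS, and 1.67% of the others. One of the 2 overlaps was with a gene on the opposite strand, where reads cannot be told apart without a stated strand setting. On the plus strand lay 59 steady genes (57.3%) and 48.0% of the others.

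Steady genes were 103 of 100919 genes, so adjacent pairs would be rare wherever they lay. No 2 of them were adjacent in the annotation, and 4 of 84 consecutive pairs on the same chromosome were less than 100 kb apart. The median distance between consecutive steady genes was 3.71 Mb. These values were not set against another group of genes, and nothing is read from them. The nearest genes of at least 10 CPM on either side were steady themselves, by the same ratio, in 28 of 206 cases (13.6%). For the others of the level this was so in 9.83% of 2156 cases, and the share among all placed genes of at least 10 CPM was 9.24%. The median ratio of the neighbours was 1.56 for the steady genes and 1.54 for the others.

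How the choice carried over to libraries it had not used was examined by applying the rule without each library in turn. On 5 libraries the rule then took 118 to 182 genes. In the library left out, the share of these genes within 1.2-fold of their mean in the other 5 was 93.3%, 100% and 97.7% for mutant replicates 1, 2 and 3, and 98.3%, 95.4% and 84.6% for WT replicates 1, 2 and 3. For the other genes of the same level the shares were 36.3%, 48.8% and 44.3% in the mutant libraries and 42.2%, 38.8% and 39.1% in the WT libraries. These other genes had failed the ratio limit on the libraries used, so their lower shares follow largely from the choice. Libraries of the left-out library's genotype were among those used. Steadiness between genotypes was thus not tested in unused data. The full rule, with the left-out library added, was met by 67.8%, 83.7% and 79.8% of the genes chosen without the mutant libraries, and by 86.4%, 67.5% and 56.0% of those chosen without the WT libraries. WT replicate 3 was again the least well met.

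**Figure D4:**
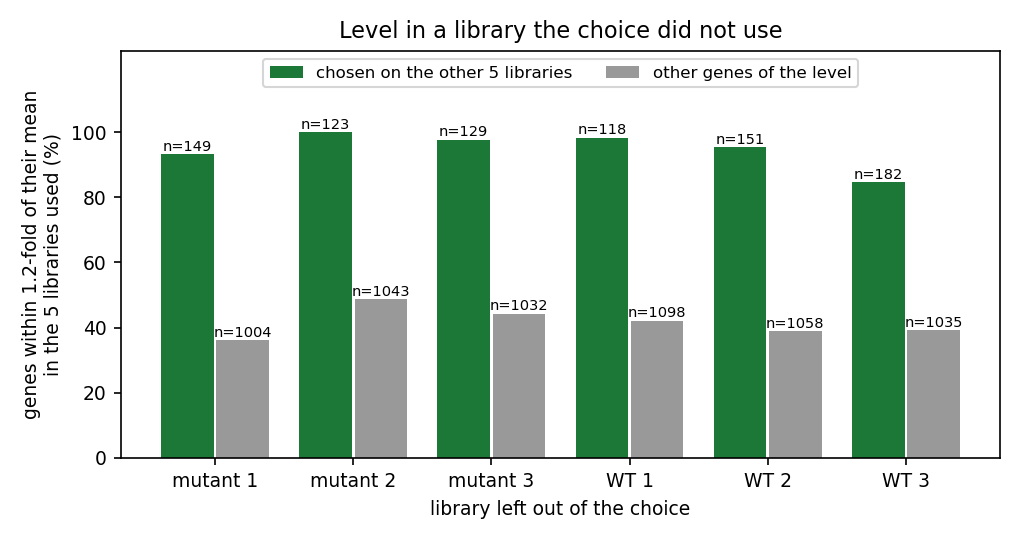
Percentage of genes (vertical axis) whose CPM in the library left out (horizontal axis) lay within 1.2-fold of their mean in the 5 libraries used, for the genes chosen on those 5 libraries (green) and the other genes of the same level (grey), with the number of genes above each bar. Chosen genes reach 84.6% to 100%, and the others 36.3% to 48.8%. The others had failed the ratio limit on those 5 libraries, so their lower shares follow largely from the choice.

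Small panels were examined in the same manner, leaving out the mutant and the WT library of a replicate number together. The geometric mean of the panel's genes was compared between the 2 libraries not used for the choice. With the single steadiest gene, the mutant level was 1.11, 1.06 and 0.920 times the WT level in replicates 1, 2 and 3. With the 3 steadiest genes the ratios were 1.07, 1.03 and 1.03, and with 5 genes 1.04, 1.01 and 0.941. With 10 genes they were 1.02, 1.00 and 0.974, and with 50 genes 0.967, 0.952 and 1.04. A shift shared by both left-out libraries cancels in such a ratio and is not shown by it. For comparison, the median difference of a single gene between the same 2 libraries was 1.11-fold, 1.08-fold and 1.12-fold among all chosen genes, and 1.52-fold, 1.44-fold and 1.504-fold among the others of the level. Those others had failed the ratio limit on the libraries used for the choice. Panels of 3, 5, 10 and 50 genes differed by at most 1.07-fold in all 3 pairs, and adding genes from 10 to 50 did not bring the ratio nearer to 1 in any of them.

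The steady genes were also compared with one another. For each gene, the SD over libraries of its log2 ratio to a steady gene was averaged over the steady genes, as in the geNorm measure M, where lower is steadier. M was 0.0763 to 0.141 for the steady genes, with a median of 0.102, and had a median of 0.307 for the others of the level. As the steady genes were themselves chosen on CPM by library totals in these libraries, a low M among them follows from the rule. Of the other genes, 123 (11.4%) had an M no higher than the highest among the steady genes. The 10 genes with the lowest ratio of CPM and the 10 with the lowest M shared 5. The lowest M belonged to BnaA05G0439200ZS (chromosome A05, 41230547 to 41231352, minus strand), a gene named after its value was seen. It had 106, 111 and 109 CPM in the mutant libraries, against 112, 113 and 105 CPM in the WT libraries, with overlap of the genotypes.

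Which genes met the rule depended on the scaling, and not only for genes next to the limit. The median ratio of the 103 genes was 1.157 with total counts, 1.176 with TMM and 1.184 with DESeq2 size factors. After scaling by TMM, 72 of the 103 genes kept a ratio of at most 1.2, and after DESeq2 size factors 61. Applied to CPM scaled by TMM, the rule took 77 genes, 72 of them among the 103, and with DESeq2 size factors 66, of which 61 were among the 103. No steady gene exceeded a ratio of 1.29 with TMM or 1.31 with DESeq2 size factors. BnaC01G0018400ZS went to ratios of 1.12 and 1.14, and BnaC01G0258600ZS to 1.14 and 1.16. These genes, the steadiest by total counts, thus remained inside the limit.

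When the steady genes set the scale, by the median of their count ratios, the effective library sizes were 0.991, 1.00 and 0.986 times the total counts in mutant replicates 1, 2 and 3, and 1.02, 1.03 and 0.964 times in WT replicates 1, 2 and 3. As the genes were chosen on CPM by total counts, these factors could not lie far from 1. Factors by TMM, to which no such limit applies, lay in a similar range. TMM gave 0.999, 0.958 and 1.00 in the mutant libraries and 1.02, 0.995 and 1.03 in the WT libraries. WT replicate 3 was thus below its total by the steady genes and above it by TMM. With the steady genes as references, edgeR called 27492 genes, 46.9% of them higher in the mutant. TMM gave 29152 calls with 49.3% higher, and total counts alone 28813 with 45.7% higher. The median log2 fold change of all tested genes was -0.002 with the steady genes and 0.02 with TMM. Calls of at least 2-fold numbered 12525 with the steady genes and 12547 with TMM.

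**Figure D5:**
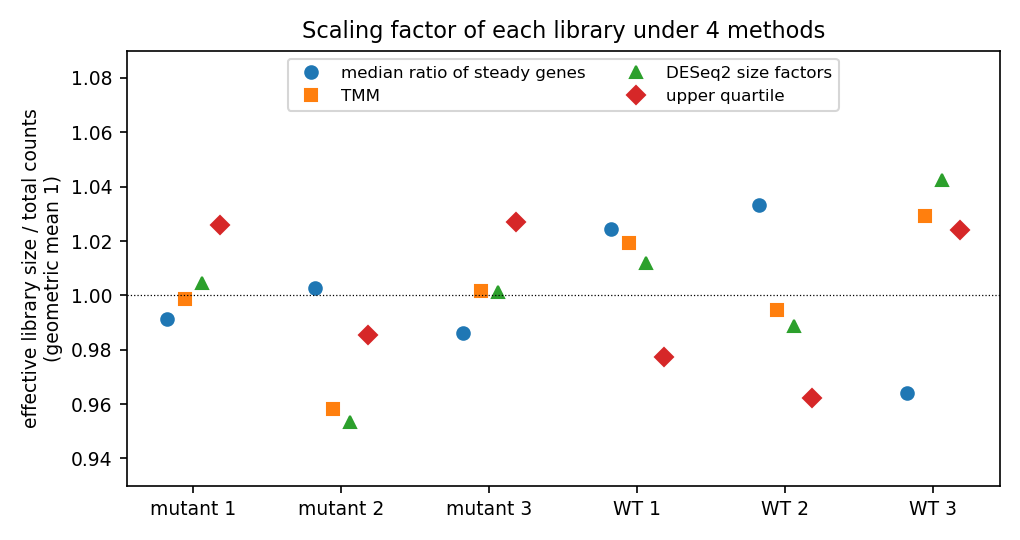
Effective library size divided by total counts, set to a geometric mean of 1 (vertical axis), in each mutant and WT library for scaling by the median ratio of the 103 steady genes, TMM, DESeq2 size factors and the upper quartile. The methods stay between 0.953 and 1.04 and differ most in WT replicate 3, at 0.964 by the steady genes and 1.04 by DESeq2 size factors.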

How the data were processed

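RNA from cotyledons was sequenced in 3 mutant and 3 WT libraries, grouped by the genotype in the labels. The authors deposited raw read counts per gene, per the file headers, which hold featureCounts columns; the submitters' processing notes also name fastp and HISAT2. Neither tool versions nor the genome build, strand setting or handling of multi-mapping reads were given in the sources used here. In 100% of rows the length was the full gene span, so counts can include intron reads. Total counts were 48288744 to 65550668 per library.

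CPM was the count divided by the library total, times 1e6. The test across all genes used edgeR 4.0.16 in R 4.3.3 (filterByExpr, TMM, quasi-likelihood F test without covariates, Benjamini-Hochberg adjustment); DESeq2 1.42.0 was an alternative. Each SE given was calculated back from that test, as the absolute log2 fold change divided by the square root of the F statistic. The fit was run on simulated counts with a single dispersion and far fewer changed genes than were called here, equally up and down. That run does not check scaling or error rates where so many genes change. As the labels do not say that replicates came from separate seedlings, p-values reflect the spread among these 6 libraries alone, which may be technical. The gene rule, the chromosome stretches and the lists were chosen with earlier results of these data known. As no table pairs identifiers with names, the named genes were those with the 2 lowest ratios, the highest and lowest mean CPM, the 2 largest fitted changes in each direction, and those nearest the limit of 1.2. Replicate libraries differed beyond sampling noise (chi-square per degree of freedom 8.998 to 20.4), so none were merged. Distances to chromosome ends are from the outermost annotated genes, and 3998 genes on unplaced sequences have none.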

Additional observations from a re-analysis of the deposited data

How the results depend on the processing

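The count of changed genes moved by less than 1.5 times in every setting tried, with TMM and with the steady genes as references. The count of steady genes did not: it was 66 with DESeq2 size factors, 14, 286 and 524 with ratio limits of 1.1, 1.3 and 1.5, 298 for 50 to below 250 CPM, and 36 for 200 to below 1000 CPM. Without single libraries it was 118 to 182, the highest without WT replicate 3. The median span was 1700.5 and 1860.5 bp with limits of 1.1 and 1.5, against 1970.0 and 2112 bp for the other genes under these settings. It was 1850.0 bp for 200 to below 1000 CPM, against 1612 bp for the others. For a window on CPM per kb it was 1285 bp, against 1045.5 bp. The causes were not tested. The share on A chromosomes stayed inside its counting interval in every setting. Steady genes called changed numbered 0 as reported, 2 with total counts alone, 2 with the upper quartile, 2 with DESeq2, 3 with scaling to genes chosen without replicate 3 of both genotypes, all lower in the mutant, and 0 to 1 when single libraries were left out. The 1 came without WT replicate 2 with TMM, and without WT replicate 3 with the steady genes as references.

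The labels do not say whether replicate numbers pair mutant with WT libraries. Deviations from the genotype means correlated at 0.131, -0.0177 and 0.0960 for numbers 1, 2 and 3. Between libraries of different numbers they correlated at -0.137 to 0.0626. Correlations this weak cannot decide whether the libraries were paired. With the replicate block 28376 genes were called, 0 of them steady genes, and 27806 with the steady genes as references. Counting error was small at this depth, so the spread between libraries limits the ratios.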
